A study of Mus musculus with 7 samples.

Results

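Cytosolic ribosomal proteins are the protein parts of the ribosomes that translate nuclear-encoded mRNAs. Their genes were taken by symbol: Rpl or Rps with a number and an optional final a or x, together with Rpsa and Rplp0 to Rplp2. The rule found 76 of the 24552 gene symbols in the count table, 46 of the large 60S subunit and 30 of the small 40S subunit. Mitochondrial ribosomal proteins, pseudogenes and paralogs with other symbols were outside it.

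The RNA came from EpCAM+ cholangiocytes, the epithelial cells that line bile ducts, freshly isolated from the livers of Foxp3GFPDTR mice. In these mice the diphtheria toxin receptor is made in cells that express Foxp3, the defining transcription factor of regulatory T cells, so the toxin is used to remove those cells. All mice, in both groups, ate for 10 days a diet containing DDC, a compound that injures bile ducts. The DT group (3 libraries) was injected into the peritoneum with diphtheria toxin at 1 µg/kg every 48 h, and the PBS group (4 libraries) with saline on the same schedule. There was no toxin group without the receptor, so an effect of the toxin itself and one of the loss of Foxp3-expressing cells cannot be told apart. The labels give no age, and they do not say whether animals were pooled or how many animals the libraries stand for. The p-values below therefore speak of differences among these 7 libraries, some of which may be technical.

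The libraries held 5683824 to 6285624 counts in DT and 4805018 to 5499832 counts in PBS, in 5419 to 7920 and 5967 to 8361 genes above 0. Epcam had 3810 to 4840 counts in DT and 3608 to 5079 counts in PBS, and the 12 cholangiocyte markers summed to 2.01% to 2.08% of counts in DT and 1.60% to 1.97% in PBS. Of the other cell types the sort could hold, the 22 hepatocyte markers summed to 0.416% to 0.523% in DT and 0.244% to 0.368% in PBS. Of these markers 17 had counts in any library, and Cyp3a11, Cps1, Mup3, Mup20 and Tat had none. The 16 listed macrophage and monocyte markers summed to 0.0341% to 0.0696% in DT, 0.00570% to 0.0129% in PBS 1 to 3 and 0.133% in PBS 4. The 11 stellate and fibroblast markers summed to 0.120% to 0.188% in DT and 0.0729% to 0.223% in PBS. Most of that sum was Rgs5, with 6786 to 11409 counts in DT and 3005 to 10841 counts in PBS. Col1a1 reached at most 130 counts, and Des, Lrat and Pdgfrb were at 0 in all 7 libraries. The sum therefore does not measure how many such cells were present. Endothelial markers reached at most 0.00612% in DT and 0.00352% in PBS. Markers of T and NK cells reached at most 1.76e-05% in DT and 0.00355% in PBS. Cd3e of T cells, Cd79a of B cells and Foxp3 were at 0 in all 7 libraries, as were all erythroid markers and all markers of B and plasma cells. Y-linked genes had reads in the 3 DT libraries and in PBS 1 only, so male animals were unevenly spread over the groups, and for most of these libraries an effect of treatment and one of sex cannot be told apart. In bulk RNA of this kind, fewer cells of a type and less RNA per cell cannot be told apart.

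Each ribosome carries a single copy of most of these proteins and several of the stalk proteins P1 and P2, and each protein is made from its own gene. Cells must therefore make many proteins in matched amounts. Vertebrate ribosomal protein mRNAs begin with a C followed by a run of pyrimidines, the 5′ terminal oligopyrimidine (TOP) tract, through which mTORC1 and the RNA-binding protein Larp1 adjust their translation. In bile duct epithelium, as in other epithelia, demand for ribosomes goes with growth and secretion. Counts of 3′ ends measure how much of each mRNA was present and say nothing of how much was translated.

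The bases around the transcription start are shown for 9 of the 12 members with the smallest edgeR p, 6 in each direction, because the tract is the sequence feature these genes are known to share. They come from RefSeq promoters on GRCm38.p6, another build than that of the counts (mm9), and run 5′ to 3′ on the gene's own strand from 15 bases before the listed start to 15 bases from it on. Capitals mark the longest run made of a C and at least 4 further pyrimidines. The first 5 genes had a positive log2 fold change and the last 4 a negative one.
Rpl14 (chr9:120571502-120571531, plus strand): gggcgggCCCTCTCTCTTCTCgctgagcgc
Rpl4 (chr9:64173372-64173401, plus strand): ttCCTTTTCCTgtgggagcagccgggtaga
Rps12 (chr10:23787195-23787224, minus strand): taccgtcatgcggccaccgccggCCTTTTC
Rps28 (chr17:33824548-33824577, minus strand): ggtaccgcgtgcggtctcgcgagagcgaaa
Rpl37 (chr15:5116598-5116627, plus strand): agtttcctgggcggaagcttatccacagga
Rps6 (chr4:86857353-86857382, minus strand): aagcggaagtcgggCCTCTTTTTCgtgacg
Rps10 (chr17:27635230-27635259, minus strand): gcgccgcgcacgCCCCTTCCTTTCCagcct
Rps18 (chr17:33955651-33955680, minus strand): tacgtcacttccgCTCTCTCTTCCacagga
Rpsa (chr9:120127751-120127780, plus strand): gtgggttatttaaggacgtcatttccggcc
A run was present in 3 of the 5 genes with a positive and 3 of the 4 with a negative log2 fold change, and these windows of Rps28, Rpl37 and Rpsa held none. A listed start can differ from the starts used in these cells.

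As a group, the ribosomal protein genes took a larger share of the reads in DT than in PBS, by a modest amount. They summed to 4.52%, 4.65% and 4.60% of all counts in DT 1, 2 and 3, and to 3.78%, 3.54%, 3.55% and 4.06% in PBS 1, 2, 3 and 4. The 2 groups did not overlap in share of all counts, and PBS 4 lay closest to DT. Summed instead as CPM, counts scaled to library size with edgeR's TMM factors, the groups overlapped, with PBS 4 above DT 1. DT 1, 2 and 3 then had 42640, 50380 and 51000 CPM. PBS 1, 2, 3 and 4 had 36220, 36100, 35120 and 44080 CPM. The mean shares of all counts were 4.59% ± 0.0693 in DT (SD, n = 3) and 3.73% ± 0.246 in PBS (SD, n = 4), a difference of 0.859 percentage points and a ratio of 1.23. The difference is larger than the SD within either group. Among the libraries with Y-linked reads the share was 4.52% to 4.65% in DT and 3.78% in PBS 1, the single PBS library of that kind. No p is given for it, since the genes were chosen with earlier results of these data known. Leaving out each library in turn gave a difference of 0.794 to 0.968 percentage points.

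The share of both subunits was larger in DT. The 60S genes summed to 2.57%, 2.59% and 2.53% of counts in DT 1, 2 and 3, and to 2.11%, 1.94%, 1.84% and 2.24% in PBS 1, 2, 3 and 4. The 40S genes summed to 1.94%, 2.07% and 2.07% in DT 1, 2 and 3, and to 1.67%, 1.60%, 1.71% and 1.82% in PBS 1, 2, 3 and 4. Within the ribosomal protein reads, the 40S part was 44.1% ± 1.00 in DT (SD, n = 3) and 45.6% ± 1.81 in PBS (SD, n = 4). These overlapped, and the difference of -1.50 percentage points is smaller than the SD in PBS.

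**Figure D1:**
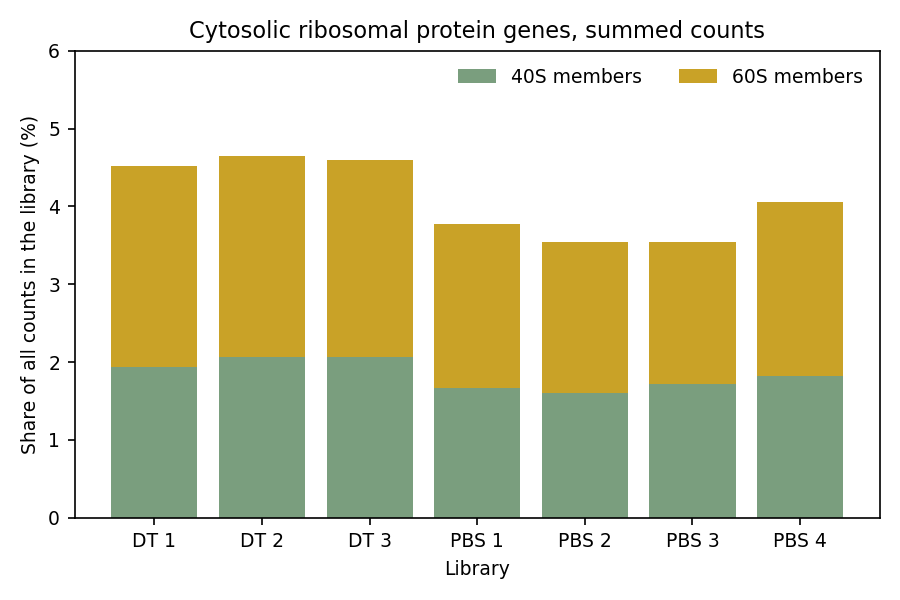
Share of all counts, in percent, held by the 40S (green) and 60S (yellow) ribosomal protein genes, stacked, in each of the 3 DT and 4 PBS libraries. The stacks reach 4.52% to 4.65% in the DT libraries and 3.54% to 4.06% in the PBS libraries, and the 60S part is the larger one in all 7.

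Other measures moved in the same libraries. Rn45s, the row of the ribosomal RNA precursor, held 3.46%, 4.64% and 4.60% of counts in DT 1, 2 and 3, and 3.16%, 3.09%, 2.63% and 3.52% in PBS 1, 2, 3 and 4. With that row taken out of the totals the ribosomal protein genes summed to 4.79% ± 0.104 in DT and 3.85% ± 0.267 in PBS (SD, n = 3 and 4). The summed hepatocyte markers, given above, were higher in every DT library than in any PBS library. Alb and Gc held most of that sum. In CPM, Alb alone showed the same separation, while Gc overlapped. PBS 4, the PBS library with the largest ribosomal protein share, was also the one with the most macrophage reads, with 1522 counts of Lyz2 against 8 or fewer in the other PBS libraries. Without PBS 4 the difference in share was 0.968 percentage points. The part of the hepatocyte and macrophage reads in these results was not tested.

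No single ribosomal protein gene passed the test across all genes. Of the 76, 72 had enough reads to be tested among 7688 genes by edgeR's quasi-likelihood test with Benjamini-Hochberg adjustment at 0.05. None was called higher or lower in DT, against 0.0% of all tested genes called higher and 0.039% called lower. At an unadjusted p below 0.05 in edgeR there were 12 higher and 1 lower, against 1.39% and 2.11% of all tested genes, and against 4.95% and 4.32% of the 1272 genes at or above the lowest decile of the ribosomal protein genes in average log2 CPM, the read level relative to library size. That set, called genes of comparable depth below, has a floor but no ceiling and was not matched in depth. With a filter at average log2 CPM 8, 707 of its genes and 58 of the ribosomal protein genes remained. The 1272 include 64 of the 72 ribosomal protein genes, with the 12 higher and the 1 lower among them. The 12 higher depended on single libraries. They became 4 without DT 2, which is 5.48% of the ribosomal protein genes then tested against 4.40% of the genes of comparable depth, 6 without DT 3 (8.22% against 3.77%) and 6 without PBS 3 (8.33% against 4.01%), and the 1 lower became 2 without DT 3. With a term for libraries that held Y-linked reads there were 6 higher and 1 lower, where 4.73% and 1.26% of all tested genes passed. That is 8.33% higher, against 4.73% of all tested genes and 8.65% of the genes of comparable depth. In that fit the share of the ribosomal protein genes thus did not exceed that of the genes of comparable depth. DESeq2 called 1 higher, Rps20, and 1 lower, Rpsa, where it called 0.61% of 7701 genes higher and 1.77% lower. limma-voom called neither, and 0.078% of all genes in each direction. At an unadjusted p below 0.05, DESeq2 had 19 higher and 3 lower, where 3.45% and 4.54% of its 11487 genes passed. That is 26.0% and 4.11% of its 73 ribosomal protein genes, Rpl30 included, against 6.76% and 6.84% of the 1272 of comparable depth. limma-voom had 20 higher and 1 lower, where 4.7% and 2.24% of all tested genes passed. That is 27.8% and 1.39% of the ribosomal protein genes, against 8.57% and 4.17% of the 1272.

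The direction was uneven. Of the 72 tested genes, 54 had a positive and 18 a negative log2 fold change, DT over PBS, so 75.0% were positive. Of all tested genes 49.3% were positive and 50.7% negative. Among the 1272 genes of comparable read depth 51.5% were positive and 48.5% negative, and 49 of the 64 ribosomal protein genes in that range were positive. The median log2 fold change was 0.40 for the ribosomal protein genes, -0.02 for all tested genes and 0.02 for the 1272. The background of this median moved with the fit. With the term for Y-linked reads it was 0.45 for the ribosomal protein genes, 0.67 for all tested genes and 0.13 for the 1272, so the ribosomal protein genes then lay below all tested genes and above those of comparable depth. In limma-voom it was 0.46, 0.21 and 0.08. The 60S subunit had 35 of 43 positive with a median of 0.43, and the 40S subunit 19 of 29 positive with a median of 0.31. The SE of a single gene ran from 0.23 to 2.63 on the log2 scale with a median of 0.38, which is about the size of the median change.

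**Figure D2:**
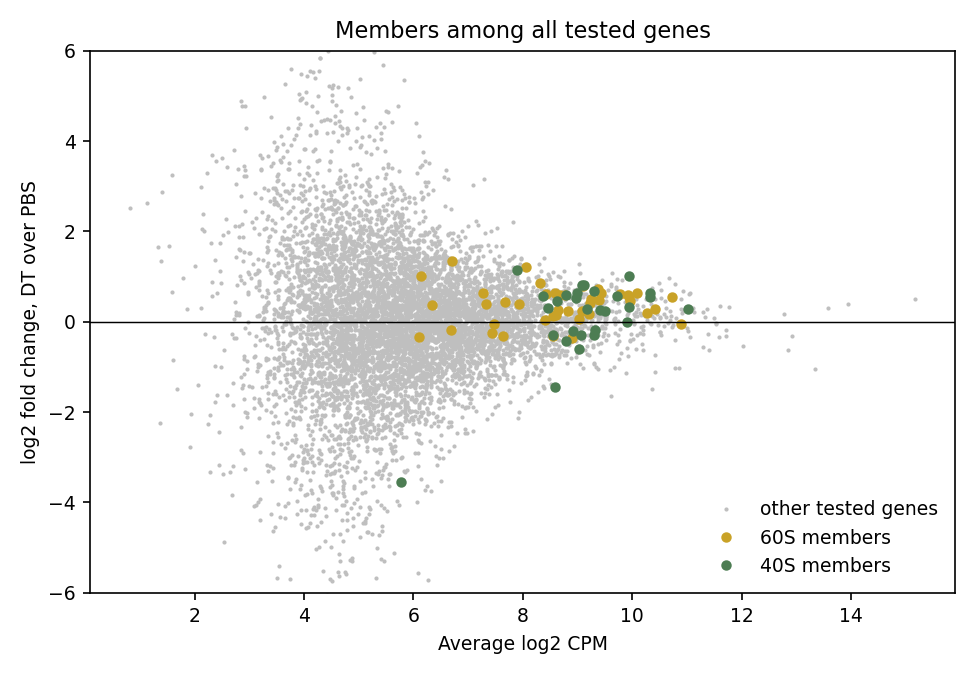
Log2 fold change (DT over PBS, vertical axis) against average log2 CPM (horizontal axis) for all tested genes (grey), with 60S (yellow) and 40S (green) ribosomal protein genes on top. Most ribosomal protein genes lie to the right of the bulk and above 0, with Rpsa at -1.44 and Rps6 at -3.55 below it, and 176 genes lie beyond the axis limits of -6 and 6.

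In 14 of the tested genes every DT library was above every PBS library, and in 2 every DT library was below, against 3.73% and 2.58% of all tested genes and 5.97% and 4.48% of the 1272 of comparable depth. The 14 were Rpl4, Rpl6, Rpl11, Rpl13a, Rpl14, Rpl23a, Rpl29, Rpl37, Rpl37a, Rplp0, Rps12, Rps16, Rps20 and Rps28, and the other two were Rps6 and Rpsa. The 14 became 24 without DT 1, and the 2 became 4 without DT 3, with fewer libraries to separate. Shares over all tested genes are not given for those settings, so the rise cannot be read as a result about these genes. By library, 41, 53 and 52 of the 72 genes were above their own mean over the 7 libraries in DT 1, 2 and 3, and 20, 23, 15 and 40 in PBS 1, 2, 3 and 4. DT 1 and PBS 4 were thus nearly alike by this count, while their summed shares were 4.52% and 4.06%. The count was made on CPM scaled with TMM factors, and the shares on library totals. Those factors were 1.09 for DT 1 and 0.95 for PBS 4. The same count over all tested genes is not given, so it is not read as a result about these genes.

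**Figure D3:**
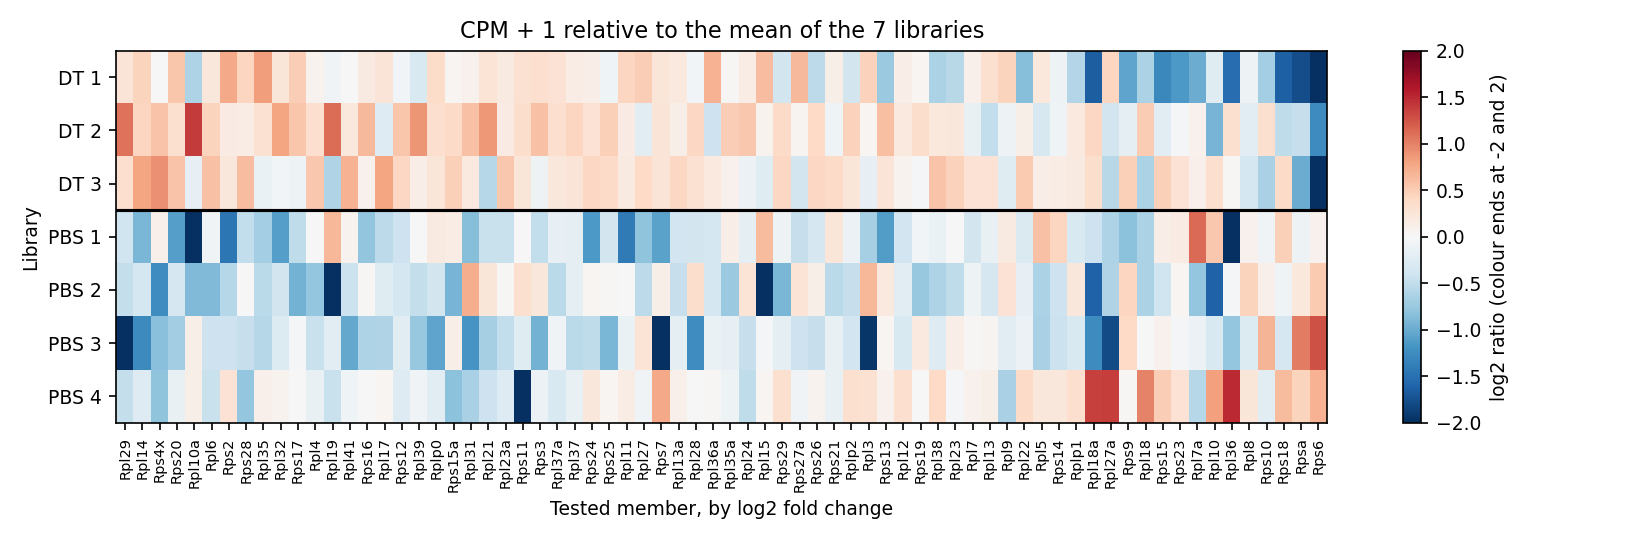
Colour shows the log2 ratio of CPM + 1 to the mean of the 7 libraries for 70 of the 72 tested ribosomal protein genes (columns, ordered by log2 fold change) in each library (rows, DT above the black line and PBS below). Red cells prevail in DT 2 and DT 3 and blue cells in PBS 1 to 3, while DT 1 and PBS 4 are mixed. At the right end Rpsa and Rps6 are blue in all 3 DT rows.

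The P stalk is the flexible arm of the 60S subunit that recruits the translation factors that hydrolyse GTP. Its base, Rplp0, had 1133, 1116 and 1043 CPM (counts scaled to library size with TMM factors, as in edgeR) in DT 1, 2 and 3, and 1000, 683.0, 424.1 and 760.6 CPM in PBS 1, 2, 3 and 4. Every DT value was above every PBS value (log2 fold change 0.61 with an SE of 0.30, edgeR adjusted p = 1.00). With the term for Y-linked reads the log2 fold change of Rplp0 was 0.13. The 2 small acidic proteins bound to Rplp0 lay among the most read of all ribosomal protein genes. Rplp1 had 1272, 2177 and 2162 CPM in DT, and 1546, 2223, 1539 and 2388 CPM in PBS, with the lowest value in DT 1 and a log2 fold change of -0.04 (SE 0.25). Rplp2 had 1054, 1888 and 1610 CPM in DT, and 1266, 993.5, 1047 and 1703 CPM in PBS, overlapping, with a log2 fold change of 0.28 (SE 0.27). DT 1 was the lowest DT library for both.

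Rpl5 and Rpl11 form with 5S ribosomal RNA a particle of the 60S subunit that, when free, binds the p53 ligase Mdm2. Rpl11 had 825.5, 686.8 and 692.6 CPM in DT 1, 2 and 3, and 227.3, 609.6, 556.8 and 673.7 CPM in PBS 1, 2, 3 and 4. The groups did not overlap, but DT 2 exceeded PBS 4 only narrowly and PBS 1 was the low one (log2 fold change 0.51 with an SE of 0.35, edgeR adjusted p = 1.00). Rpl5 had 390.9, 269.7 and 368.3 CPM in DT, and 507.6, 218.1, 214.6 and 393.6 CPM in PBS, with PBS 1 the highest of all (log2 fold change 0.04, SE 0.46). The particle's 2 proteins thus had unlike values in PBS 1, the lowest library for Rpl11 and the highest for Rpl5.

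All 8 tested proteins of the exit tunnel and its rim, where the nascent chain leaves the 60S subunit, had a positive log2 fold change, from 0.05 to 0.79 with a median of 0.63. Of all tested 60S genes 81.4% were positive, so the shared sign is not shown to be particular to the tunnel. None of the 8 passed in edgeR. Rpl4, which reaches into the tunnel wall, had 1150, 1377 and 1594 CPM in DT 1, 2 and 3, and 1098, 636.4, 800.0 and 981.9 CPM in PBS 1, 2, 3 and 4. The groups did not overlap, with DT 1 just above PBS 1 (log2 fold change 0.64 with an SE of 0.28, edgeR adjusted p = 1.00). Rpl23a, at the rim where targeting factors dock, had 1096, 1087 and 1406 CPM in DT, and 708.7, 980.5, 691.9 and 812.9 CPM in PBS, again without overlap (log2 fold change 0.58, SE 0.28).

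Of the other 30 tested 60S genes, 23 had a positive log2 fold change, with a median of 0.38. Rpl14, a protein of the outer surface of the subunit, had 363.0, 359.3 and 462.6 CPM in DT 1, 2 and 3, and 141.1, 208.0, 109.6 and 224.2 CPM in PBS 1, 2, 3 and 4. The lowest DT value was well above the highest PBS value, and with 1.21 (SE 0.50, edgeR adjusted p = 1.00) its log2 fold change was among the largest in the group. Rpl37, a zinc-binding 60S protein, had 1869, 2282 and 2030 CPM in DT, and 1488, 1493, 1161 and 1524 CPM in PBS. It did not overlap, with 3 PBS libraries close together and PBS 3 below them (log2 fold change 0.54, SE 0.24). Among the rest without overlap, the log2 fold change was 0.47 for Rpl13a, 0.55 for Rpl37a, 0.86 for Rpl6 and 1.34 for Rpl29. The last had an SE of 1.18, and without PBS 3, where it had 22.86 CPM, its log2 fold change was 1.05. Rpl8, which lies beside the peptidyl transferase centre, had the smallest p among 60S genes with a negative log2 fold change, -0.37 (SE 0.37). It had 444.2, 404.1 and 372.3 CPM in DT, and 503.7, 643.9, 392.2 and 563.2 CPM in PBS, and PBS 3 lay within the DT range.

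**Figure D4:**
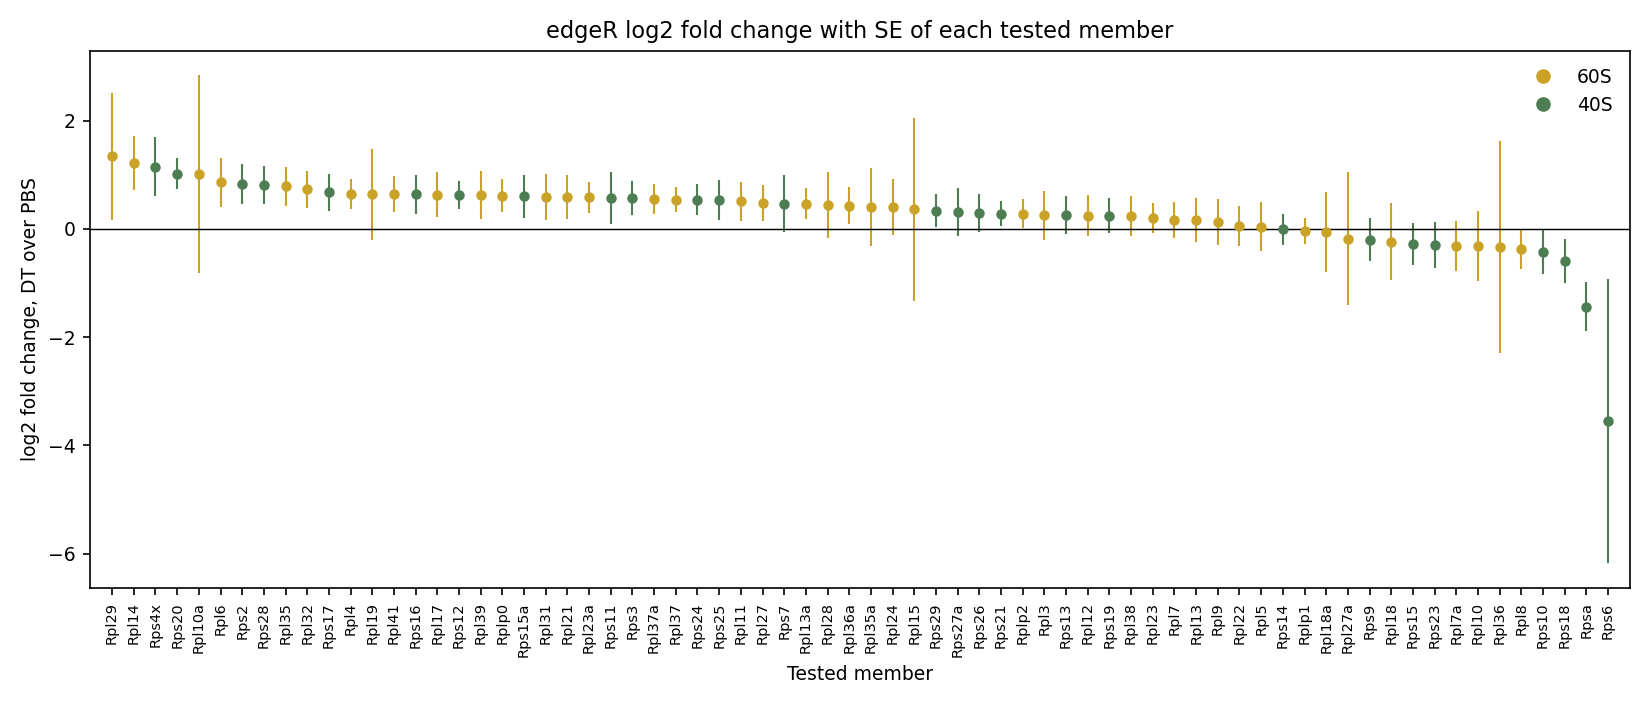
Log2 fold change (DT over PBS) with its SE as a vertical bar for 70 of the 72 tested genes in order of size, 60S in yellow and 40S in green. 54 points lie above 0 and 16 below, most SE bars are near the median SE of 0.38, and Rps6 at the far right, at -3.55, has an SE of 2.63.

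In the head of the 40S subunit, 10 of 14 genes had a positive log2 fold change, with a median of 0.44. Rps20, a head protein, had 1456, 1238 and 1471 CPM in DT 1, 2 and 3, and 456.9, 781.9, 608.1 and 891.7 CPM in PBS 1, 2, 3 and 4. Each DT library was above each PBS library, with a fold of 2.03 (log2 fold change 1.02, SE 0.29). Its adjusted p was 0.642 in edgeR, 0.00503 in DESeq2 and 0.0635 in limma-voom, so the call rests on the tool. Rps12, also of the head, had 1238, 1877 and 1702 CPM in DT, and 957.7, 1003, 1109 and 1071 CPM in PBS. The PBS libraries were close together and all below DT (log2 fold change 0.63 with an SE of 0.26, edgeR adjusted p = 1.00). Rps28, which sits near the exit of the mRNA channel, had 725.0, 596.6 and 824.5 CPM in DT, and 383.7, 536.1, 392.4 and 314.7 CPM in PBS, without overlap (log2 fold change 0.81, SE 0.35). Rps16 did not overlap either, with a log2 fold change of 0.64.

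Not all head proteins lay on that side. Rps18 had 166.3, 365.1 and 678.0 CPM in DT 1, 2 and 3, and 720.7, 489.9, 409.9 and 808.9 CPM in PBS 1, 2, 3 and 4 (log2 fold change -0.59, SE 0.40). DT 3 lay within the PBS range and DT 1 well below it. Rps10 had 277.4, 554.0 and 282.2 CPM in DT, and 423.1, 475.4, 713.7 and 383.5 CPM in PBS (log2 fold change -0.43, SE 0.40), with DT 2 within the PBS range. Rps27a, made as a fusion with ubiquitin, had 549.9, 364.9 and 273.2 CPM in DT, and 256.0, 425.1, 262.8 and 334.6 CPM in PBS, overlapping (log2 fold change 0.31, SE 0.44).

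The body and platform of the 40S subunit held 9 of 15 tested genes with a positive log2 fold change, with a median of 0.28, and both genes whose DT libraries were all below PBS. Rpsa, a 40S protein that is also known as the laminin receptor, had 112.5, 280.2 and 194.5 CPM in DT 1, 2 and 3, and 361.6, 449.1, 784.2 and 523.9 CPM in PBS 1, 2, 3 and 4. The groups were apart, with a fold of 0.37 (log2 fold change -1.44, SE 0.45). Its adjusted p was 1.00 in edgeR and 0.0167 in DESeq2. Rps6, the 40S protein phosphorylated by the S6 kinases downstream of mTORC1, had 0, 118 and 4 counts in DT 1, 2 and 3, and 298, 398, 645 and 450 counts in PBS 1, 2, 3 and 4. Its log2 fold change of -3.55, with an SE of 2.63 (edgeR adjusted p = 1.00, DESeq2 adjusted p = 0.366) rests on the few reads in DT, and it was the least read of the 72 genes.

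Rps21, the most read of all ribosomal protein genes, had 2261, 1975 and 2733 CPM in DT 1, 2 and 3, and 2466, 1440, 1876 and 1879 CPM in PBS 1, 2, 3 and 4. It overlapped through PBS 1 (log2 fold change 0.28, SE 0.23). Rps24 had 1411, 1569 and 1704 CPM in DT, and 581.5, 1318, 901.8 and 1500 CPM in PBS, with only PBS 4 above the lowest DT value (log2 fold change 0.54, SE 0.28).

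**Figure D5:**
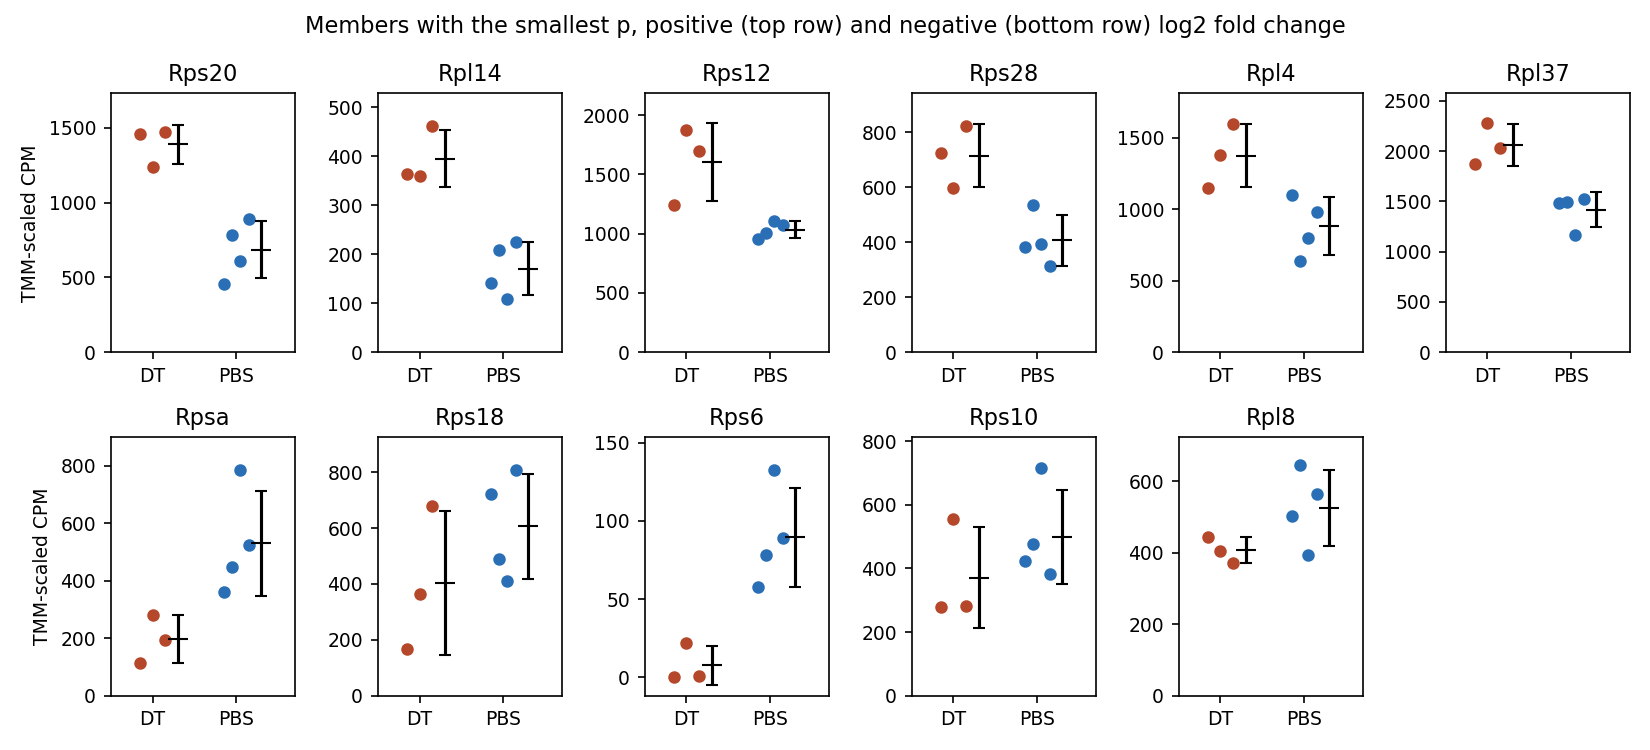
CPM in each library (points, DT left and PBS right) with the mean and SD of the group beside them, for the 6 ribosomal protein genes with the smallest p and a positive log2 fold change (top row) and 5 with a negative one (bottom row). In the top row no DT point is below a PBS point, and in the bottom row this separation is seen for Rpsa and Rps6, with Rps18, Rps10 and Rpl8 overlapping.

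Not every member could be measured. Rpl26, Rpl34 and Rps27 had 0 counts in all 7 libraries, although each is a constituent of cytosolic ribosomes. Rpl30 had 0, 1 and 0 counts in DT 1, 2 and 3, and 0, 235, 133 and 0 counts in PBS 1, 2, 3 and 4, and was too little read to be tested. These 4 rows do not measure the gene's level. Ribosomal protein genes have many processed pseudogenes, and reads that match several places can be split or discarded, depending on a counting rule that is not given in the sources used here. In the GENCODE M21 annotation, 71 of the 76 had at least 1 near-identical copy elsewhere over the end of the coding sequence (97% identity over 100 bases), with a median of 4 and a highest number of 41, for Rpl21. Rpl4, Rpl8, Rpl22 and Rps9 were among those without one. The unmeasured Rpl26, Rpl34, Rps27 and Rpl30 had 6, 4, 3 and 11 copies, within the range of the measured genes. Levels of all 71 are uncertain for this reason.

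Genes with more copies were read less, with a Spearman correlation of -0.45 between copies and average log2 CPM across the 72 genes, which share their libraries. The copies did not order the genes by log2 fold change (Spearman correlation -0.004 across the same 72). The 5 genes with no copy had a median log2 fold change of -0.18 with 2 positive, the 14 tested genes with 0 or 1 copies a median of 0.13 with 8 positive, and the 13 tested genes with 10 or more copies a median of 0.40 with 9 positive. A difference between these sets was not tested. Rps20 and Rpsa, the pair called by DESeq2, had 2 and 8 copies.

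Levels differed widely within the group. Mean CPM over the 7 libraries ran from 54.4 for Rps6 to 2090 for Rps21 with a median of 503.9, on a scale of 3′ reads that is not divided by transcript length. The 6 most read genes, Rps21, Rplp1, Rpl37, Rplp2, Rps24 and Rps12, held 22.8% of all ribosomal protein reads. Replicates varied by a median coefficient of variation of 26.2% in DT and 29.9% in PBS, against 35.8% and 37.4% for the 1272 genes of comparable depth. The 1272 genes were not matched to the ribosomal protein genes in read depth and include most of them. That variation is a description of these libraries and was not tested against other genes.

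Promoter sequences were given for 56 of the 76 genes. A run of a C and at least 4 further pyrimidines lay within 15 bases either side of the listed start in 34 of them, 60.7%, against 36.4% of 27025 genes. Starting exactly at the listed start, it was present in 12 of 56, 21.4%, against 2.49% of all genes. The letters CCGGAA, the core bound by ETS factors, were found on either strand of the 300 bases around the start in 28 of 56, against 15.2% of all genes, and AANATGGC, bound by YY1, in 17.9% against 6.23%. The run of pyrimidines did not separate the genes by log2 fold change. The 32 tested genes with one had a median of 0.43 with 24 positive, and the 21 without one a median of 0.40 with 18 positive. These matches describe letters in the window, not sites in use.

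Lists of genes that work with the ribosomal proteins had medians between -0.29 and 0.08 on the log2 scale, and held no gene past the threshold in edgeR, with 0.0% of all tested genes called higher and 0.039% lower. Of the 9 tested ribosomal proteins outside the symbol rule, 3 were positive, and their median log2 fold change was -0.06. Fau, which is made as a fusion with a protein like ubiquitin, had -0.08, Rack1 on the 40S head had -0.09, and Rps3a1 had -0.90. The paralogs Rps27l and Rpl36al had 0.76 and 1.14. Of 19 tested non-ribosomal transcripts listed as TOP RNAs, mostly mRNAs with some noncoding RNAs, 7 were positive, with a median of -0.05. The tract itself was not looked for in these 19. Among them the elongation factor Eef1a1 had 0.30, with all DT above all PBS libraries (2478 ± 147 CPM in DT and 2007 ± 189 CPM in PBS, SD, n = 3 and 4), Eef1b2 had 0.61 and Nap1l1 had -1.10.

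Of 44 tested ribosome assembly factors, 18 were positive, and their median log2 fold change was -0.29. Mdn1, the large ATPase of 60S maturation, had -1.89 with all DT below all PBS libraries, Ddx21, a nucleolar helicase, had -0.62, and Ltv1, a 40S export factor, had 3.57. RNA polymerase I, which makes the ribosomal RNA precursor, had 6 of 12 subunits and factors positive, with a median of 0.08. Taf1d had -0.44, Polr1b had 2.98 (SE 2.62) and Znrd1 had -2.27 (SE 2.16), the last with all DT below all PBS libraries. Of 19 genes of the mTORC1 pathway and of TOP mRNA control, 8 were positive, with a median of -0.17, and Rraga, a GTPase that brings mTORC1 to the lysosome, had 1.00. Max had 0.73, and Tia1, an RNA-binding protein of stress granules, had 4.98 (SE 3.31) with all DT above all PBS libraries. Of 14 genes of ribosome quality control and turnover, 4 were positive, with a median of -0.23. Nemf, which acts on stalled 60S subunits, had -0.87 and Pelo, which helps to split stalled ribosomes, had -1.83 (SE 2.46), both with all DT below all PBS libraries, and Ddrgk1 had 2.28 (SE 2.70).

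These medians were not stable. Over the alternatives run, the median ran from -0.38 to 1.20 for RNA polymerase I and from -0.22 to 1.05 for the mTORC1 pathway and TOP mRNA control, with both upper ends in the fit with the term for Y-linked reads. It ran from -0.41 to 0.02 for assembly factors, from -0.12 to 0.17 for the non-ribosomal transcripts listed as TOP RNAs and from -0.17 to 0.14 for ribosomal proteins outside the symbol rule. That of quality control and turnover ran from -0.60 to -0.0032. Whether these lists differ from the ribosomal protein genes was not tested.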

How the data were processed

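The deposited table holds unnormalized read counts for each gene symbol. Libraries were made with the Lexogen Quantseq FWD kit, which reads 3′ ends, per the labels' protocols. Per the submitters' processing notes the build was mm9. For the aligner, the counting tool and the annotation, the entry is: not given in the sources used here. The labels gave the groups. DT and PBS were compared with the edgeR 4.0.16 quasi-likelihood F test (R 4.3.3, robust, two-sided) with TMM scaling, on the 7688 genes kept by filterByExpr, which held 97.5% of all counts. Benjamini-Hochberg adjustment ran over all of them with a threshold of 0.05. DESeq2 1.42.0 and limma-voom (limma 3.58.1) with sample weights were alternatives, among those described in the closing section. The scripts were tested on simulated data. No 2 libraries had counts alike enough to be 1 library deposited more than once. Near-identical copies were sought with BLAST 2.17.0, in a window from 120 bases before the end of the stop codon to 30 bases after it.

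The genes and lists were chosen with earlier results of these data known, so no list was tested and no p was adjusted over a list alone. The genes named were the 6 with the smallest p in each direction, the 6 most read, every one without overlap between the groups, every untested one and a fixed set of 8 (Rplp0 to Rplp2, Rpl5, Rpl11, Rps6, Rpsa and Rps27a), plus up to 3 with the smallest p from each other list. Of the cell type marker lists, summed shares and some defining markers are given in place of those 3. Some genes, among them 1 of the 6 with the smallest p and a negative log2 fold change, are not reported here by name, though they stayed in every test and sum. Fau and Rack1 and genes named for their number of copies or for a PBS library far from the others were chosen after their values were seen. Intervals between libraries cover their spread only, and PCR reads are not independent molecules.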

Additional observations from a re-analysis of the deposited data

Results flagged for a closer look

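In each of 74 sets of 4 PBS values (72 genes and 2 summed shares), the distance of the farthest library from its nearest neighbour was divided by the range of the 4. It passed the 95% limit of Dixon's test in 6 genes, where about 3.7 would pass by chance if the values were normal. The sets share the same 4 libraries and are not independent. No share over all tested genes is given, so the 6 are listed as descriptions only. Rpl37 had 1161 CPM in PBS 3 and 1488 to 1524 CPM in the other PBS libraries, a gap of 0.901 of the range. Rpl29 had 22.86 CPM in PBS 3 and 74.22 to 78.22 CPM in the others (0.928). Rpl35 had 583.1 CPM in PBS 4 and 339.3 to 376.2 CPM in the others (0.849), and Rpl27a had 268.7 CPM in PBS 4 and 28.84 to 67.04 CPM in the others (0.841). Rpl31 had 681.6 CPM in PBS 2 and 180.4 to 262.9 CPM in the others (0.835). Rps13 had 313.1 CPM in PBS 1 and 698.5 to 772.5 CPM in the others (0.839). The 3 DT libraries were too few for this test.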

How the results depend on the processing

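The median log2 fold change of the tested ribosomal protein genes stayed positive, at 0.27 to 0.54 over 17 alternatives, while that of all tested genes ran from -0.15 to 0.67, above the ribosomal protein genes with Y-linked reads as a covariate (0.45 against 0.67), and 44 to 61 of them were positive, the 44 with fewer genes tested. The counts called were 0 and 0 in these alternatives except DESeq2 (1 and 1). At unadjusted p-values under 0.05, counted in each alternative after seeing the data, 12 higher became 19 in DESeq2 (3.45% of all genes), 20 in limma-voom (4.7%), 6 with Y-linked reads as a covariate (4.73%) and 4 to 10 when a library was left out (1.46% to 2.82%), and 1 lower became 3 in DESeq2 and 1 to 2 when a library was left out. Among genes of comparable depth the higher shares were 6.76% in DESeq2, 8.57% in limma-voom and 3.77% to 6.45% when a library was left out. The covariate leaves PBS 1 as the only PBS library with Y-linked reads. Genes without overlap numbered 14 to 24 higher and 2 to 4 lower when a library was left out, and 13 and 2 on library totals without TMM, a setting chosen after seeing the data. No share over all tested genes is given for these settings, so changes in these counts are not interpreted. Of the 25 named genes with a test, 4 changed sign in at least 1 alternative. Rpl5 went to -0.0023 with the filter at log2 CPM 8, to -0.57 with Y-linked reads as a covariate and to -0.13 to 0.31 when a library was left out. Rplp1 went to 0.059 with the replicate block, 0.027 in limma-voom, 0.28 with the Y covariate and -0.16 to 0.15 when a library was left out. Rps21 went to -0.086 with the Y covariate, and Rps27a to -0.024 to 0.51 when a library was left out. Other named genes kept their sign with the Y covariate but moved. Among them Rplp0 (0.13), Rpl4 (0.32) and Rpsa (-0.89) moved toward 0, and Rpl11 (1.69), Rps20 (1.60) and Rps24 (1.43) away from it. The cause was not tested. Samples with the same replicate number did not deviate together (correlations -0.06, -0.02 and 0.03 over 733 genes), and the replicate block gave a median of 0.54 (0.16 for all tested genes) with 61 positive and none called. Few reads limit Rps6.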
